A study of Mus musculus with 2 samples.

Results

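The 10 lipid handling genes described here, *Apoe*, *Trem2*, *Gpnmb*, *Cd36*, *Lpl*, *Fabp4*, *Fabp5*, *Plin2*, *Spp1* and *Lgals3*, were chosen by name as genes known from lipid-laden macrophages, and are 10 of the 22337 gene symbols measured. Levels were taken from 4441 cells of 6 heart allografts, 3 labelled IL-33+ (Bm12 *Il33*+/+ donor hearts) and 3 labelled IL-33- (Bm12 *Il33*-/- donor hearts), on postoperative day 14. Between Bm12 and B6 the graft mismatch is a mutation in 1 MHC class II molecule, to which the CD4+ T cells of the recipient respond. All 6 hearts were placed in B6 recipients, the Bm12 mutation is shared by both groups, and only the donor heart lacks *Il33* in the IL-33- group, whose line came from a cross of Bm12 with *Il33*-/- mice. Cells were taken after digestion and a density gradient meant to keep immune cells, marked with 1 hashtag antibody per heart, and pooled into 1 droplet library, so that all hearts share its free RNA. Mouse ages are not given in the sources used here.

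Macrophages take up lipoproteins, fatty acids and dying cells, break their lipids down in the lysosome, store what is left over in droplets and return cholesterol to lipoproteins. In injured or fat-rich tissue a macrophage state with high *Trem2*, *Gpnmb*, *Cd9*, *Lpl* and *Spp1* has been described and is called lipid-associated. The 10 genes cover these steps. CD36 brings in fatty acids and oxidized lipoproteins, and lipoprotein lipase frees fatty acids from triglyceride. FABP4 and FABP5 carry fatty acids in the cell, and perilipin 2 (*Plin2*) coats lipid droplets. TREM2 is a receptor for lipids and lipoproteins, GPNMB is a membrane protein of stressed lysosomes, and apolipoprotein E leaves the cell with cholesterol. Osteopontin (*Spp1*) and galectin-3 (*Lgals3*) are secreted by activated macrophages and by some other cells.

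A level is the mean over the cells of a type in 1 heart of the CPM, which is the UMIs (counted transcripts) of a gene scaled to a fixed total per cell, and the level of a type is the mean of its 6 hearts. A cell held 1500 to 14977 UMIs, with a median of 3699, and a heart 230 to 1666 cells and 908204 to 7013331 UMIs. The 429 annotated macrophages came as 192, 10 and 98 cells from IL-33+ replicates 1, 2 and 3 and as 71, 21 and 37 from IL-33- replicates 1, 2 and 3, with 6243.5 to 7122 UMIs per cell as the median of a heart. Of 9 macrophage markers, 6 had their highest mean level in macrophages, among them *C1qa* at 1260.5 CPM and *Adgre1* at 176 CPM, and *Cd68*, *Csf1r* and *Mertk* were second. In IL-33- replicate 2, 8 neutrophil markers summed to 2692 CPM in macrophages, against 26.5 to 133 in the other hearts. Among the cells annotated unconventional T cells, 52 of 83 (62.7%) held at least 2 T cell and 2 macrophage markers, so that their levels may mix 2 cells. *Il33* in annotated fibroblasts was 24.3, 0 and 50.7 CPM in the IL-33+ hearts and 32.6, 73.8 and 16.1 CPM in the IL-33- hearts. In macrophages it was 3.12, 21.2 and 2.93 CPM (8 UMIs) in the IL-33+ hearts and 0 in all 3 IL-33- hearts. The part of *Il33* that the IL-33- line lacks is not given in the sources used here, so this 3' count did not check the labels, and the groups are named as labelled.

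Promoter sequence in RefSeq (GRCm38.p6, 250 bases before to 50 after a start) was matched for 7 of the 10 genes (10 windows), and not for *Lpl*, *Fabp4* and *Fabp5*. The windows of *Trem2* and *Gpnmb* are shown. The levels of these genes went together over the annotated types (Pearson's r of 0.92). So did those of *Trem2* with *Plin2* (0.94) and of *Apoe* with *Gpnmb* (0.92). Only *Trem2* and *Gpnmb* among the members had a window with the letters TGANTCA, in capitals below. N is any base, so this pattern is looser than the AP-1 consensus, which the *Gpnmb* letters fit and the *Trem2* letters do not. The *Trem2* window is chr17:48346151-48346450 and the *Gpnmb* window chr6:49036268-49036567, both on the plus strand and printed 5′ to 3′.
Trem2: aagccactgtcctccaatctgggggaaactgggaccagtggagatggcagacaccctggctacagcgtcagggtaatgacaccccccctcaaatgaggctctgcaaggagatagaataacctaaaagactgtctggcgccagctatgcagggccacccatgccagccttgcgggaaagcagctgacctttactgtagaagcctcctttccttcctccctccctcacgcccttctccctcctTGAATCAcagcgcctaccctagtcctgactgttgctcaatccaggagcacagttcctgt
Gpnmb: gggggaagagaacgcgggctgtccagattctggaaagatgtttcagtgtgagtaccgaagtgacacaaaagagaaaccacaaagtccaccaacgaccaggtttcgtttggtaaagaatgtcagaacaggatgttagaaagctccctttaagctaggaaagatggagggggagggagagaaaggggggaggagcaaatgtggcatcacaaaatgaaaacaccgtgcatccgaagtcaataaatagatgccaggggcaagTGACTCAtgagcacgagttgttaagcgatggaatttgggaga
The match began 9 bases before the start site in *Trem2* (TGAATCA) and 8 bases after the first base of the RefSeq transcript in *Gpnmb* (TGACTCA). GENCODE starts *Gpnmb* further downstream, so that the match lies before the start of the gene as printed here. The loose pattern TGANTCA, on either strand, was in 7.81% of all 32851 promoter windows. Of 10 motifs searched on both strands, CACGTG (7.15% of windows) was in *Plin2*, 4 bases before the start, GAGGAAGT (3.20%) was in *Spp1*, and TATAAA (13.6%) was in *Apoe* and *Spp1*. The other 6 motifs, TCACGTGA (which holds CACGTG), AGAGGAAG (which overlaps GAGGAAGT), the direct repeats DR1 and DR4, TTGCGCAA and CATGTG, had no match in these windows. A match says only that the letters are there.

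Levels over the 14 annotated types differed from gene to gene, as shown in the grid of mean levels. *Apoe*, *Gpnmb* and *Plin2* had their highest mean in macrophages with Mo-DCs next, and *Trem2* in Mo-DCs with macrophages next. *Lpl* and *Fabp4* were highest in annotated fibroblasts, *Fabp5* in cDCs, and *Spp1* reached high means in T cell types as well as in myeloid types. *Lgals3* was high in all myeloid types, and *Cd36* had no single leading type. The types were named from clusters of these same cells, so that differences between types are given with no test.

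**Figure D1:**
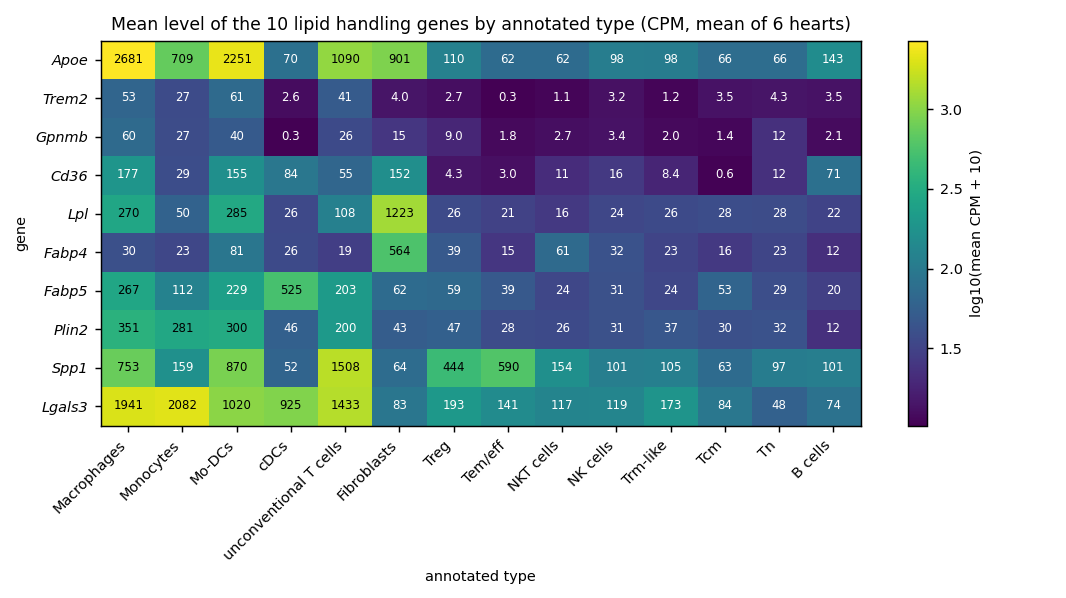
Mean level (CPM, mean of 6 hearts, printed in each square) of the 10 genes (rows) in the 14 annotated types (columns), coloured by log10(mean CPM + 10). *Apoe* is brightest in macrophages (2681 CPM) and Mo-DCs (2251 CPM), *Lpl* in fibroblasts (1223 CPM), and *Lgals3* in all 4 myeloid types and the unconventional T cells.

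*Apoe* (GRCm38 chromosome 7, 19696109 to 19699188, minus strand) was 2681 CPM in macrophages, 2251 CPM in Mo-DCs, 1090 CPM in unconventional T cells, 901 CPM in fibroblasts and 709 CPM in monocytes. Macrophages were above monocytes in 6 of 6 hearts, by 3.78-fold in the means, but above Mo-DCs in only 3 of 6. The Mo-DC mean was raised by IL-33- replicate 3, at 7044 CPM from 17 cells, against 553 to 1883 CPM in the other hearts. In the 8 other lymphocyte types the means were 61.8 to 143 CPM, and macrophages were 30.4-fold above their average. That lymphocyte level was 74.3 to 112 CPM in every heart, although the macrophage level ranged from 956 to 4734 CPM.

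*Trem2* (chromosome 17, 48346401 to 48354147, plus strand) and *Gpnmb* (chromosome 6, 49036546 to 49070929, plus strand) were low, and highest in myeloid types. *Trem2* was 60.5 CPM in Mo-DCs, 52.8 CPM in macrophages, 41.2 CPM in unconventional T cells and 26.8 CPM in monocytes, and 4.25 CPM or less in each other type. *Gpnmb* was 60.0 CPM in macrophages, 39.8 CPM in Mo-DCs and 27.4 CPM in monocytes. cDCs, also phagocytes, had almost none of either, 2.56 CPM of *Trem2* and 0.346 CPM of *Gpnmb* (1 UMI in 171 cells). Neighbours at the top of both orders overlapped over hearts. Over the 14 types, the log2 levels of *Trem2* and *Gpnmb* had a Pearson's r of 0.92, and *Trem2* and *Plin2* one of 0.94, the highest among the 10 genes. All points share the 1 library and its free RNA.

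*Plin2* (chromosome 4, 86648386 to 86670060, minus strand) was 351 CPM in macrophages, 300.1 CPM in Mo-DCs and 281 CPM in monocytes. It differed from *Apoe* in being as high in monocytes as in macrophages, which were higher in only 3 of 6 hearts. Next came unconventional T cells at 199.6 CPM, and the other 10 types were at 12.4 to 46.8 CPM. *Lgals3* (chromosome 14, 47367751 to 47386160, plus strand) was 2082 CPM in monocytes and 1941 CPM in macrophages, with monocytes higher in 5 of 6 hearts. It was 1020 CPM in Mo-DCs and 925 CPM in cDCs, and these 4 types and the unconventional T cells (1433 CPM) stood above all others. The step from cDCs to the next type, Treg at 193 CPM, was 4.80-fold and held in 6 of 6 hearts with no overlap of the hearts' ranges.

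*Cd36* (chromosome 5, 17781690 to 17888801, minus strand) was 177 CPM in macrophages, 155 CPM in Mo-DCs and 152 CPM in annotated fibroblasts, which overlapped over hearts. Monocytes had 28.8 CPM, and macrophages were above them in 6 of 6 hearts (6.14-fold). *Lpl* (chromosome 8, 68880491 to 68907448, plus strand) was 1223 CPM in fibroblasts (878 to 1445 CPM over hearts), 4.29-fold above Mo-DCs at 285 CPM, with no overlap of the hearts' ranges. Macrophages followed at 270 CPM, 5.40-fold above monocytes and higher in 5 of 6 hearts.

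The neighbouring genes *Fabp5* (chromosome 3, 10012548 to 10016607, plus strand) and *Fabp4* (chromosome 3, 10204088 to 10208576, minus strand) lie 187 kb apart but had different patterns, with an r of 0.066 over the 14 types. *Fabp4*, the adipocyte and endothelial family member, was 564 CPM in annotated fibroblasts, 81.4 CPM in Mo-DCs and 30.0 CPM in macrophages, which were 1.09-fold the lymphocyte average of 27.6 CPM. *Fabp5*, the epidermal family member, was 525 CPM in cDCs, 267 CPM in macrophages, 229 CPM in Mo-DCs and 112 CPM in monocytes. cDCs were above macrophages in 5 of 6 hearts, and macrophages above monocytes in 6 of 6.

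*Spp1* (chromosome 5, 104435118 to 104441050, plus strand) was 870 CPM in Mo-DCs and 753 CPM in macrophages, and also 590 CPM in Tem/eff and 444 CPM in Treg, against 52.3 to 159 CPM in the 9 types below these. The highest mean, 1508 CPM in unconventional T cells, rested on IL-33+ replicate 2, where only 2 such cells gave 7341 CPM. The T cell signal sat in few cells. In Tem/eff, 34 of 327 cells had 10 or more *Spp1* UMIs and held 1010 of 1218 UMIs, and such cells came from all 6 hearts. In Treg 9 of 263 cells did, with 322 of 428 UMIs, while none of 243 Tn, 266 Tcm or 362 Trm-like cells reached 10. In Tn 51 of 243 cells had a UMI, and the highest had 3. Of the Tem/eff, 18 of 327 (5.50%) held at least 2 T cell and 2 macrophage markers. Whether the cells rich in *Spp1* were among these was not tested.

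By likeness of log2 levels over the 14 types (6307 genes that reached 50 CPM in some type), the closest gene was *Myof* for *Apoe* (r = 0.95), *Cd300ld* for *Trem2* (0.98) and *Spon1* for *Lpl* (0.98). It was *Timp3* for *Fabp4* (0.95), *Tapbp* for *Fabp5* (0.94), *Tlr2* for *Plin2* (0.98), *Rnf128* for *Spp1* (0.87) and *Rbm47* for *Lgals3* (0.98). The next 2 were *Parvb* and *Cxcl2* for *Apoe*, *Fcgr4* and *Klra2* for *Trem2*, and *Pla2g4a* and *C4b* for *Lpl*. For the rest they were *Egfl7* and *Fbln2* (*Fabp4*), *Tnip3* and *Csf2rb2* (*Fabp5*), *Slc7a8* and *Ccl6* (*Plin2*), *Abhd12* and *C1qc* (*Spp1*), and *Ctsa* and *Ptpro* (*Lgals3*). *Rgcc* and *Gdf15* were among the 3 genes most like *Gpnmb* (both 0.93), and *Fcgrt* and *Tcf7l2* among those most like *Cd36* (both 0.92). *Spp1* had the weakest matches, 0.83 to 0.87.

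Within macrophages the genes differed in how widely they were spread. *Lgals3* had a UMI in 417 of 429 cells (97.2%, or 84.6% after each cell was thinned to 1500 UMIs), with a median of 11 UMIs. *Apoe* had one in 71.1% of cells (thinned 48.4%) with a median of 2 UMIs, and its 43 cells with the most (10% of macrophages) held 77.1% of its UMIs, up to 520 in 1 cell. The same top 10% held 30.2% of UMIs for *Lgals3*, 44.0% for *Plin2*, 64.4% for *Fabp5*, and 74.2% to 100% for *Trem2*, *Cd36*, *Lpl*, *Spp1*, *Fabp4* and *Gpnmb*. A gene found in few cells reaches a high share in any case, and *Gpnmb* was found in 38 cells. In Tn, which should lack these genes, the thinned shares were 11.4% for *Apoe*, 12.7% for *Spp1*, 7.34% for *Lgals3*, 4.61% for *Fabp4* and 0.515% for *Trem2*, at a median of 2764 UMIs per cell before thinning against 6605 in macrophages. *Fabp4* in macrophages, at 3.44%, was therefore no more frequent than this background.

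Macrophages with a *Trem2* UMI carried more of most other members. The 102 such cells averaged 6532 CPM of *Apoe*, 712 CPM of *Lpl*, 1482 CPM of *Spp1* and 149 CPM of *Gpnmb*. The 327 without averaged 1100.3, 172, 459 and 12.4 CPM, in the same order. *Apoe*, *Lpl*, *Spp1*, *Cd36* and *Plin2* were higher with *Trem2* in 5 of the 5 hearts that had both kinds of cell, and *Gpnmb*, *Fabp5* and *Lgals3* in 4. *Fabp4* went the other way, at 12.7 against 29.9 CPM and higher with *Trem2* in 1 of 5 hearts. The cells with *Trem2* were deeper (median 7656 against 6476 UMIs), and thinned to 1500 UMIs they still held *Apoe* in 71.4% against 41.2% and *Lpl* in 29.2% against 12.3%. *Plin2* and *Lgals3* differed little, at 37.8% against 31.4% and 87.1% against 83.8%. At least 7 of the 10 genes were found together in 60 of 429 macrophages (14.0%), 1 of 154 monocytes, 3 of 204 Mo-DCs, 0 of 171 cDCs and 9 of 83 unconventional T cells. The 0 in cDCs allows a share of up to 1.75% of cells with that many detected. These counts were not matched for depth, and the median cell held 6605 UMIs in macrophages, 2310.5 in Mo-DCs and 10175 in unconventional T cells. Across the 429 macrophages, pooled over hearts and depths, Spearman's rho was at most 0.38 (*Apoe* with *Trem2*) and next 0.35 (*Cd36* with *Lpl*).

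**Figure D2:**
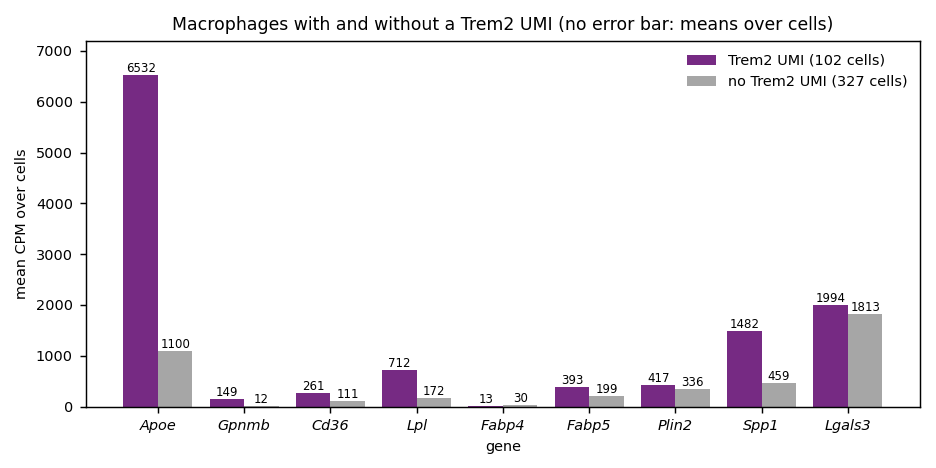
Mean CPM over cells (vertical axis) of the other 9 genes in macrophages with a *Trem2* UMI (purple, 102 cells) and without (grey, 327 cells). *Apoe* is 6532 against 1100.3 CPM and *Spp1* 1482 against 459 CPM, while *Fabp4* is lower with *Trem2*.

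The fibroblast levels came from distinct cells. Of 375 annotated fibroblasts, 74 had UMIs of at least 2 of 8 endothelial markers (*Pecam1*, *Cdh5*, *Kdr* and others), with a median of 6 of these and 1 of 7 fibroblast markers, and 209 had none, with a median of 6 fibroblast markers. The 74 cells averaged 2855 CPM of *Fabp4*, 836 CPM of *Cd36* and 248 CPM of *Fabp5*, and held 95.4%, 97.0% and 78.8% of the UMIs of these genes among annotated fibroblasts. The 209 cells averaged 27.4, 4.06 and 15.6 CPM. *Lpl* and *Apoe* lay on the other side, at 1290 and 1439 CPM in the 209 cells against 373 and 392 CPM in the 74, although *Lpl* was higher without endothelial markers in only 4 of the 5 hearts that had both. *Apoe* was so in 5 of 5, and *Fabp4* and *Fabp5* were higher with the markers in 5 of 5 and *Cd36* in 4. Of the 74 cells, 53 came from IL-33+ replicate 3.

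**Figure D3:**
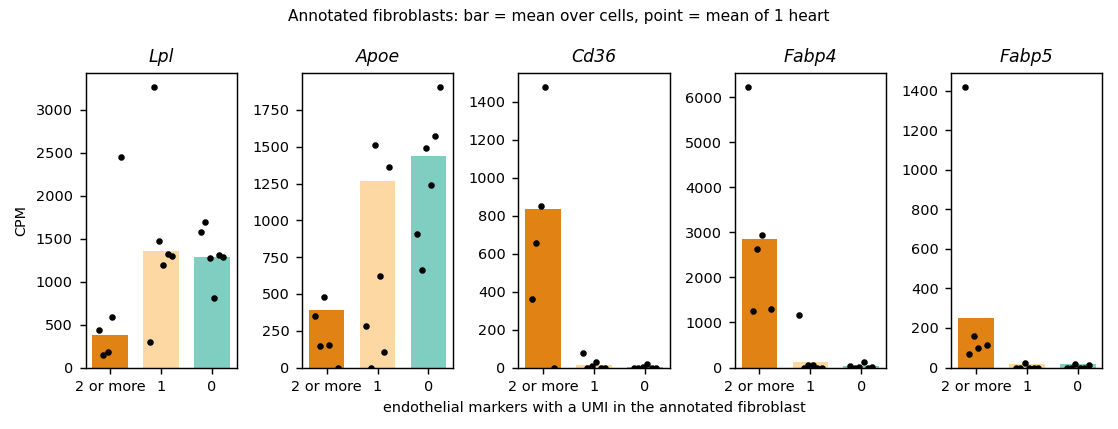
Level (CPM, vertical axis, its own scale in each panel) of 5 genes in annotated fibroblasts with UMIs of 2 or more, 1 or 0 endothelial markers (horizontal axis), with bars for the mean over cells and points for single hearts. *Fabp4*, *Cd36* and *Fabp5* stand in the cells with 2 or more markers, while *Lpl* (1290 CPM) and *Apoe* (1439 CPM) are high in the cells with none. IL-33- replicate 2 has no cell with 2 or more.

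The comparison of IL-33+ with IL-33- hearts asked whether graft IL-33 goes with another lipid handling profile of macrophages. No member was called. With limma on log2(CPM + 10) and Benjamini-Hochberg adjustment over all 9685 genes tested, 0 of the 10 members (lowest adjusted p = 0.99) and 0% of all genes passed. At an unadjusted p of 0.05 or less stood 2 members, *Cd36* and *Spp1*, both lower in IL-33+ hearts, against 4.04% of all genes, and limma-voom on summed UMIs also called 0, with 1 at that unadjusted level. The hearts of both groups overlapped for all 10 genes, while 8.97% of all genes had groups apart. Fold changes of the 10 members pointed up in IL-33+ hearts for 2 and down for 8. Their median was -0.26 on the log2 scale, against -0.05 over all genes. Among markers of other cells summed in macrophages, 7 fibroblast markers were at 258 to 375 CPM in IL-33+ and 376 to 600.3 CPM in IL-33- hearts, 8 endothelial markers at 92.9 to 164 against 52.9 to 94.4 CPM, and 4 of 4 adipocyte markers at 0 in every heart. In IL-33+ replicate 3, 9 macrophage markers summed to 5516 CPM in macrophages, against 3803 to 4138 CPM in the other hearts. There 6 monocyte markers summed to 1618 CPM, against 1806 to 2787 CPM in the other hearts. The part of the macrophage, monocyte, fibroblast, endothelial and neutrophil markers in these results was not tested.

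*Cd36* in macrophages was 52.0, 15.2 and 232 CPM in IL-33+ replicates 1, 2 and 3 and 227, 368 and 169 CPM in IL-33- replicates 1, 2 and 3. IL-33+ replicates 1 and 2 lay below all IL-33- hearts, while replicate 3 lay among them. The means were 99.7 ± 116 against 254 ± 103 CPM (SD, n = 3 each), with a log2 fold change of -1.80 ± 0.52 (SE, limma, unadjusted p = 0.0025, adjusted p = 0.99).

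*Spp1* showed the same shape. It was 394, 103 and 1154 CPM in the IL-33+ hearts and 656, 1064 and 1147 CPM in the IL-33- hearts, or 551 ± 542 against 956 ± 263 CPM. The log2 fold change was -1.32 ± 0.49 (limma, unadjusted p = 0.014, adjusted p = 0.99). *Apoe* was 956, 1457 and 4358 CPM in IL-33+ and 2590, 1993 and 4734 CPM in IL-33- hearts, with a log2 fold change of -0.67 ± 0.37 (limma, adjusted p = 0.99). IL-33+ replicate 3 again stood with the high IL-33- hearts. Without it, limma called all 3 of *Cd36* (-2.67 ± 0.36, adjusted p = 3.3e-05), *Spp1* (-2.13 ± 0.30, adjusted p = 4.4e-05) and *Apoe* (-1.29 ± 0.23, adjusted p = 0.0022), among 13 of 8999 genes (0.144%). That fit sets 2 IL-33+ hearts, 1 of them with 10 macrophages, against 3. Leaving out some other hearts made the values smaller. Without IL-33+ replicate 2, the heart with 10 macrophages, *Cd36* was -1.04 and *Spp1* -0.45. *Apoe* was -0.20 without IL-33+ replicate 1 and -0.31 without IL-33- replicate 3, and none of these was called.

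The receptor *Trem2* was 68.7, 0 and 103 CPM in IL-33+ and 43.9, 23.1 and 78.4 CPM in IL-33- hearts. In IL-33+ replicate 2 none of 10 macrophages had a *Trem2* UMI, which allows up to 30% of cells with a detected UMI and sets no limit on cells that express the gene. *Gpnmb* was 5.97, 79.5 and 108 CPM against 37.0, 40.9 and 88.9 CPM. For both genes the groups covered much the same range, with log2 fold changes of -0.28 ± 0.64 and -0.16 ± 0.56, and the sign turned in some settings. *Lpl* was 206, 13.3 and 597 CPM against 173, 303.6 and 325 CPM, with means of 272 and 267 CPM (log2 fold change -0.89 ± 0.68, and positive with limma-voom or without IL-33+ replicate 2).

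*Plin2* and *Fabp4* had the only fold changes above 0. *Plin2* was 223, 296 and 779 CPM in IL-33+ and 189, 390 and 229 CPM in IL-33- hearts, and the heart at 779 CPM carried its log2 fold change of 0.52 ± 0.35, which became -0.00051 without IL-33+ replicate 3. *Fabp4* was 17.1, 41.7 and 49.9 CPM against 9.67, 28.6 and 32.8 CPM (0.46 ± 0.47), near its level in lymphocytes. *Fabp5* was 241, 197 and 255 CPM against 191, 506 and 212 CPM (-0.25 ± 0.30, and positive without IL-33- replicate 2, the heart with neutrophil markers). *Lgals3* hardly varied, at 1805, 2011 and 1697 CPM against 2196, 2387 and 1551 CPM (-0.13 ± 0.19). Across the 10 genes, IL-33+ replicate 3 had the highest level of 6 and IL-33+ replicate 2 the lowest of 4.

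**Figure D4:**
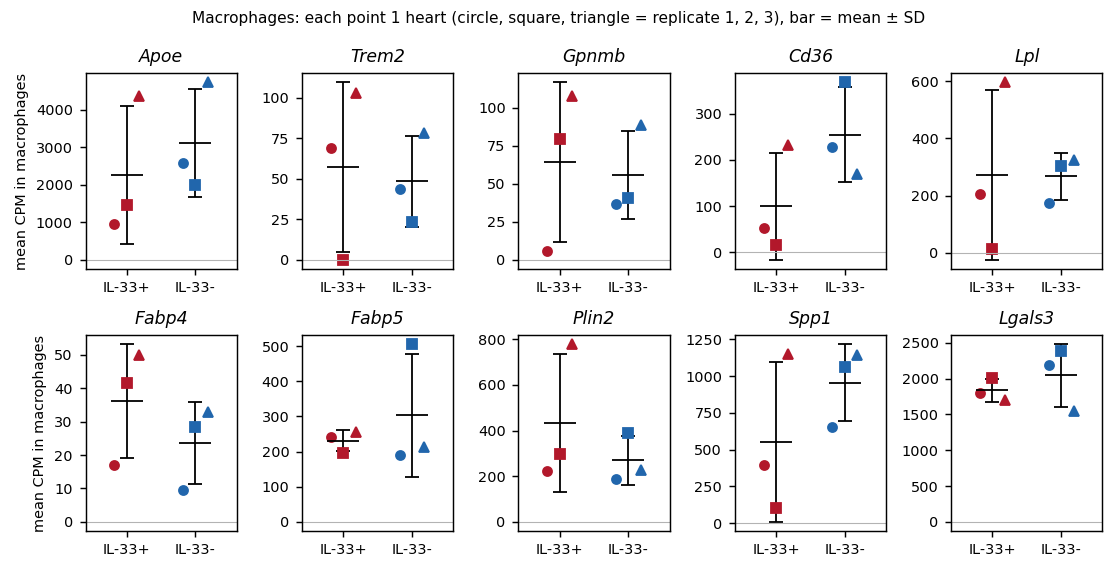
Mean CPM in macrophages (vertical axis, its own scale in each panel) of each gene by graft group, with 1 point per heart (circle, square and triangle for replicates 1, 2 and 3) and the mean ± SD of 3 hearts. The groups overlap in every panel, and the triangle of IL-33+ replicate 3 is highest for 6 genes.

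The share of macrophages with a UMI, thinned to 1500 UMIs, separated the groups for none of the 10 genes (two-sided exact permutation p of 0.3 to 1, where 0.1 is the smallest that 3 against 3 hearts allow). It was 9.002 ± 9.02% against 16.6 ± 8.75% for *Cd36* (SD, n = 3, exact permutation p = 0.4) and 49.7 ± 2.14% against 51.6 ± 10.2% for *Apoe* (exact permutation p = 0.8). IL-33+ replicates 1 and 3 had the same thinned *Apoe* share, 48.5% and 48.4%, at 956 and 4358 CPM. The difference between those 2 hearts thus lay in how much *Apoe* their positive macrophages held, with 38 of 192 and 29 of 98 cells at 10 or more UMIs.

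Outside macrophages 107 pairs of a member and a type could be tested, and none passed the adjusted threshold in limma, against 0.00966% of all tests. At an unadjusted p of 0.05 or less were 16 of the 107, against 4.77% of all tests, 11 higher and 5 lower in IL-33+ hearts. Limma-voom put 13 there and also called none. The members were picked with earlier results of these data known, and pairs of 1 gene share their hearts, so this share carries no test.

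In annotated fibroblasts *Fabp4* was 1326, 420 and 544 CPM in IL-33+ and 911, 0 and 183 CPM in IL-33- hearts (log2 fold change 2.49 ± 0.76, adjusted p = 1.0 in limma). *Cd36* was 77.7, 219 and 171 CPM against 446, 0 and 0 CPM (2.10 ± 0.83), although the mean CPM was alike at 156 and 149. *Fabp5* was 250.2, 23.6 and 47.5 CPM against 28.7, 0 and 23.8 CPM (1.75 ± 0.77). The groups overlapped for all 3. The share of fibroblasts with at least 2 endothelial markers was 17.6%, 33.3% and 19.6% in IL-33+ and 29.0%, 0% and 13.3% in IL-33- hearts, of 34, 6, 270, 31, 4 and 30 cells, and its part in these differences was not tested. The heart at 0 for all 3 genes, IL-33- replicate 2, was the one with no such cell. Limma called *Fabp4* when IL-33+ replicate 1, IL-33- replicate 1 or IL-33- replicate 3 was left out (log2 fold changes of 2.01, 3.96 and 2.83) and *Cd36* without IL-33- replicate 1 (3.94), in fits that called 0.0400% to 0.149% of genes. Without IL-33- replicate 2, with 4 fibroblasts, *Fabp4* was 0.69 and *Cd36* 1.19, and with all hearts of under 10 cells left out they were 1.03 and 0.90, not called. Limma-voom gave 1.10 for *Fabp4*, and *Cd36* was also 1.19 without IL-33- replicate 3. *Fabp5* was 0.90 without IL-33+ replicate 1 and 1.13 without IL-33- replicate 2. *Lpl*, the leading member in fibroblasts, was 1233 ± 183 against 1214 ± 298 CPM, a log2 fold change of 0.04 ± 0.27, whose sign turned with summed UMIs.

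*Spp1* pointed up in IL-33+ hearts in several types while it pointed down in macrophages. It hardly differed in Tem/eff, at 592 ± 312 against 589 ± 269 CPM (log2 fold change -0.02 ± 0.28), and was -0.20 ± 0.49 in monocytes. In Treg it was 346, 818 and 653 CPM in IL-33+ and 683, 79.4 and 81.6 CPM in IL-33- hearts (log2 fold change 1.70 ± 0.45, limma adjusted p = 0.48). IL-33- replicate 1 stood with the IL-33+ hearts, and without it limma called the gene (2.68, adjusted p = 5.2e-05, 1 of 6724 genes), as it did with no filter on low counts (adjusted p = 0.012, 4 of 12823 genes). The 322 UMIs of the 9 richest Treg came from 8 cells of IL-33+ hearts and 1 of IL-33- replicate 1. Of the Treg, 11 of 263 (4.18%) held T cell and macrophage markers together, and without such cells the value was 1.51 ± 0.46. In Mo-DCs *Spp1* was 500.1, 1692 and 1378 CPM against 335, 879 and 436 CPM (1.05 ± 0.48). The value turned to -1.14 when the richest cell of each heart was left aside. IL-33+ replicate 2, with as few as 4 Mo-DCs, was then at 0 CPM, while mean CPM was 380 in IL-33+ and 290 in IL-33- hearts. The same step left means of 358 against 112 CPM in Treg and 395 against 593 CPM in macrophages. In Tn *Spp1* was 93.2, 236 and 83.9 CPM against 87.5, 39.8 and 44.1 CPM (1.06 ± 0.51), no cell having over 3 UMIs.

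In unconventional T cells *Spp1* was 107, 7341 and 1174 CPM against 162, 159 and 102 CPM (log2 fold change 2.76 ± 0.69, limma adjusted p = 0.37). The highest levels were in 2 hearts, where single cells held 156 and 146 UMIs. Without the richest cell of each heart *Spp1* was 80.9, 138 and 220 CPM in IL-33+ and 46.4, 84.1 and 0 CPM in IL-33- hearts, where IL-33+ replicate 2 had 2 cells before this step. With all cells kept, the *Spp1* difference varied by setting. The *Spp1* difference was called with 50 CPM added (2.57), with no filter (2.76), and without IL-33+ replicate 1 (4.31) or 3 (2.64), in fits that called 0.1801% to 1.09% of genes. Without IL-33+ replicate 2 it was 1.33, with hearts of under 10 cells left out 1.11 and with limma-voom 1.65, not called. *Apoe* in the same cells was 536, 693 and 1204 CPM against 1492, 1476 and 1142 CPM (-0.82 ± 0.27, adjusted p = 0.91), and called (-1.15, adjusted p = 0.030) without IL-33+ replicate 3. With cells that held both marker sets removed, as 52 of the 83 did, *Apoe* was -0.14 ± 0.53. Whether *Spp1* or *Cd36* differed between types in their response was not tested.

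**Figure D5:**
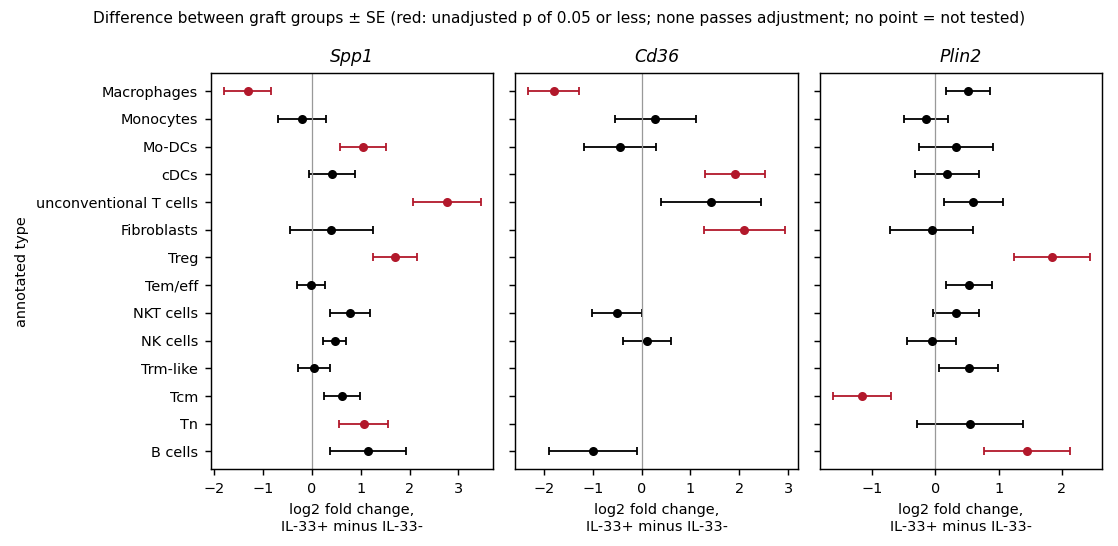
Log2 fold change, IL-33+ minus IL-33- (horizontal axis, bar = SE of limma, n = 3 hearts each), of *Spp1*, *Cd36* and *Plin2* in each annotated type (vertical axis), red at an unadjusted p of 0.05 or less. *Spp1* lies at -1.32 in macrophages and at 1.70 in Treg, *Cd36* at -1.80 in macrophages and at 1.91 in cDCs, and none passes adjustment.

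*Cd36* in cDCs was 63.2, 338 and 43.3 CPM in IL-33+ and 27.7, 11.1 and 22.2 CPM in IL-33- hearts, so that the groups did not overlap (log2 fold change 1.91 ± 0.61, limma adjusted p = 0.53). Of the 54 *Cd36* UMIs in cDCs, 22 lay in 2 cells, 1 each in IL-33+ replicates 1 and 2. IL-33+ replicate 2, at 338 CPM, had 6 cDCs. Without it the value was 1.08, with hearts of under 10 cells left out 0.84, and with limma-voom 0.59. Outside macrophages the groups were apart for 8 of the 107 member pairs, against 9.89% of all tests in these types. *Fabp5*, whose highest type was cDCs, ranged there from 112 to 830 CPM in IL-33+ and from 207 to 1010 CPM in IL-33- hearts (-0.63 ± 0.55). *Plin2*, at low levels, was apart in opposite directions in lymphocytes. It was 132, 44.4 and 57.1 CPM against 26.7, 20.48 and 0 CPM in Treg (1.84 ± 0.60) and 32.9, 6.43 and 31.2 CPM against 4.14, 0 and 0 CPM in B cells (1.45 ± 0.68). In Tcm *Plin2* was 4.90, 21.3 and 20.3 CPM against 40.3, 45.6 and 47.4 CPM (-1.17 ± 0.46). These values rest on 39 *Plin2* UMIs in 263 Treg, 13 in 286 B cells and 36 in 266 Tcm. IL-33- replicates 2 and 3, at 0 CPM in B cells, had 4 and 15 such cells. *Lgals3* was lower in IL-33+ hearts in Tcm (-1.05 ± 0.41) and Tn (-1.58 ± 0.72), where its mean level was 84.4 and 47.6 CPM. *Fabp4* was 1.14 ± 0.41 in NK cells, and in NKT cells -1.89 ± 0.60, with 286 CPM in IL-33- replicate 2 and at most 34.8 CPM in the other hearts. In NKT cells 1 cell of IL-33- replicate 2 held 48 of the 85 *Fabp4* UMIs. Of the 96 in NK cells, 25 lay in 1 cell of IL-33+ replicate 1. None of these values passed adjustment in limma. In their leading types, *Trem2* in Mo-DCs was -0.80 ± 1.23 and *Lgals3* in monocytes -0.05 ± 0.18.

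Beyond the members, 106 genes in 7 lists cover the rest of the pathway, and 92 could be tested in macrophages. Limma called 0, and 4 genes (4.35%) were at an unadjusted p of 0.05 or less, all lower in IL-33+ hearts, near the 4.04% of all genes. Of the 18 other genes known from lipid-associated macrophages, 2 had a higher and 16 a lower mean log2 level in IL-33+ hearts, and the median fold change was -0.29. The lowest was *Cd9*, a tetraspanin, at 202, 253 and 229 CPM in IL-33+ and 459, 791 and 319 CPM in IL-33- hearts. Its groups did not overlap (-1.07 ± 0.27, unadjusted p = 0.00083, adjusted p = 0.89 in limma). The proteases *Ctsd* (-0.60 ± 0.34) and *Ctsb* (-0.19 ± 0.21), the latter the most abundant of the list at 2316 and 2602 CPM, overlapped, and *Ctsd* was called without IL-33+ replicate 3 (-1.15).

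Of 9 tested genes for cholesterol efflux and LXR targets, 1 was higher and 8 were lower, with a median of -0.31. *Apoc2*, an activator of lipoprotein lipase, was 27.7, 0 and 64.3 CPM against 56.2, 85.9 and 77.2 CPM (-1.44 ± 0.54, unadjusted p = 0.015 in limma), *Nr1h3*, which encodes LXR alpha, was -0.99 ± 0.54, and the cholesterol exporter *Abca1* -0.32 ± 0.25. The median was -0.01 over 10 uptake genes, where the HDL receptor *Scarb1* was 1.01 ± 0.50, *Marco* 0.48 ± 0.40 and *Cxcl16* 0.23 ± 0.27. It was -0.01 over 13 genes of PPAR and fatty acid oxidation, with *Pparg* at -0.87 ± 0.46 and *Ppard* at 0.65 ± 0.37, both with groups apart, and *Ucp2* at -0.14 ± 0.26. Activation, storage and lipolysis (13 genes) had -0.09, with *Acsl1* at -0.82 ± 0.38 (unadjusted p = 0.042), *Hilpda* at 0.67 ± 0.46 and *Soat1* at 0.01 ± 0.24. Lysosomal lipid breakdown (14 genes) had -0.02, with *Lipa*, the acid lipase, at -0.88 ± 0.40 (unadjusted p = 0.039), *Gla* at -0.40 ± 0.27 with groups apart, and *Psap* at -0.29 ± 0.17. Sterol and fatty acid synthesis (15 genes) had 0.19, with *Fdft1* at -0.76 ± 0.40 with groups apart, *Fasn* at 0.73 ± 0.51 and *Insig1* at -0.05 ± 0.33. None of these passed adjustment in limma. *Pparg* and *Fdft1* had only 38 and 21 UMIs in all macrophages, against 151 for *Ppard* and 384 for *Gla*. Both *Pparg* and *Fdft1* were at 0 CPM in IL-33+ replicate 2, the heart with 10 macrophages. Among the other tested genes of the lists, groups were also apart for *Acsl3*, higher in IL-33+ hearts, and for *Lrp1*, *Ctsz*, *Tyrobp* and *Itgax*, lower. Over all genes tested in macrophages, groups were apart for 8.97%.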

How the data were processed

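Single-cell RNA was measured in immune cells of 6 pooled hearts with the 10x 3' kit and hashtags. The authors aligned reads to mm10 with Cell Ranger, filtered and typed cells in Partek Flow 10.0.23.0425, and deposited log2(CPM + 1) values with each cell's type and heart. How hashtags were assigned is not given in the sources used here. The logarithm was undone, and whole UMIs were taken from the smallest step of each cell (99.9% of low values within 0.05 of a whole number; 22 symbols, no member, were not whole). Mean CPM per heart and type was compared with limma 3.58.1 in R 4.3.3 (trend) on log2(mean CPM + 10), keeping genes whose UMIs summed to 10 or more and were found in 3 hearts or more, and called at 0.05 after Benjamini-Hochberg adjustment. Fold changes are on that scale and understate changes of low genes. The fit was tested on simulated data. Shares were thinned by the exact expectation for 1500 UMIs. Doublets were not removed in the main analysis. Floors, the upper limits given where no cell was counted, cover counting error only, while each ± is an SD or SE over hearts. Positions are those of GENCODE vM21, counted from 1. Named were all members in macrophages, in their highest type and at an unadjusted p of 0.05 or less, and 3 alike genes each. Per list they were the 2 largest changes and the highest level, plus tested genes with groups apart. For *Gpnmb* and *Cd36*, 1 alike gene each is not reported here. The members and lists were chosen with earlier results of these data known. Python 3.11.15, numpy 2.4.6 and scipy 1.17.1 were used. Alternatives are given at the end.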

Additional observations from a re-analysis of the deposited data

Results flagged for a closer look

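*Plin2* had groups of hearts apart in opposite directions in 3 types. Its log2 fold change, IL-33+ minus IL-33-, was 1.45 in B cells and 1.84 in Treg, where each IL-33+ heart was above each IL-33- heart, and -1.17 in Tcm, where each was below. The difference between these types was not tested, and none of the 3 values passed adjustment. The levels were low (at most 132 CPM in a heart), from 13 UMIs in B cells, 39 in Treg and 36 in Tcm over all hearts. Over all genes, groups were apart in 9.89% of tests in the types other than macrophages, and over the member pairs in 7.48%.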

How the results depend on the processing

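Of 30 member and type pairs, 21 kept their direction in every alternative that could be fitted, and 14 of 398 values were called. In macrophages no other setting than leaving out IL-33+ replicate 3 called a member, and a robust variance prior left 0 of them at an unadjusted p of 0.05 or less. With a heart left out, 0 to 3 members were called in macrophages, 0 to 3 in the other types and 0 to 1 pathway genes in macrophages. In the other types 1 was called with 50 CPM added and 2 with no filter on low counts. With 50 CPM added, *Trem2* in macrophages became 0.014 (log2) and *Gpnmb* 0.019. With limma-voom *Trem2* became 0.46, *Lpl* 0.20, and *Lpl* in fibroblasts -0.21 (-0.30 with CPM of summed UMIs). *Trem2* in Mo-DCs was 0.81 with hearts of under 10 cells left out. *Spp1* in Mo-DCs was -1.14 without the richest cell of each heart, chosen after seeing the data. Mean CPM of *Spp1* in that setting was higher in IL-33+ hearts in Mo-DCs, Treg, Tem/eff and unconventional T cells, and lower in macrophages and NKT cells. With 1 heart left out, ranges that crossed 0 were -0.95 to 0.80 for *Trem2*, -0.71 to 0.73 for *Gpnmb*, -1.92 to 0.43 for *Lpl*, -0.50 to 0.18 for *Fabp5* and -0.00051 to 0.88 for *Plin2* in macrophages. They were -1.60 to 0.15 for *Trem2* in Mo-DCs, -0.17 to 0.18 for *Lpl* in fibroblasts, -1.28 to 0.11 for *Fabp5* in cDCs and -0.15 to 0.0203 for *Lgals3* in monocytes. The cause was not tested. Without thinning, the share difference was -4.24 points for *Gpnmb* and 6.65 for *Fabp4*, and 78 of 80 share values stayed within 1 SD. All 30 level values did, but with a mean over all cells the highest type became macrophages for *Trem2*, fibroblasts for *Cd36*, and Mo-DCs for *Plin2* and *Spp1*. Mo-DCs also led for *Spp1*, at 867 CPM against 842 CPM in unconventional T cells, once cells with both T cell and macrophage markers were removed. No heart had under 10 macrophages, so that setting gave no other fit there. No paired analysis was possible because the hashtags number the hearts from 1 to 6 and the groups share no number. Precision is limited by 3 hearts per group and by hearts with 2 to 10 cells of a type.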
